A study of Mus musculus with 4 samples.

Results

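This account describes 31 genes of cell-matrix adhesion, taken by name from a deposited table of 54532 genes: fibronectin (Fn1), 12 integrin alpha chains, 8 integrin beta chains and 10 proteins of the cytoplasmic face of the focal adhesion. All 31 names were found in the table. The table holds gene expression measured by RNA sequencing in 4 libraries of cells labelled as mouse primary fibroblasts, which the sample titles place in the lung. Of these, 2 libraries carry the genotype Calu-WT (WT below) and 2 carry Calu-KO, in which the gene for calumenin, a calcium-binding protein of the secretory pathway, was targeted. The titles of the Calu-KO libraries have the letters KD, and the method of targeting, the strain, sex and age of the animals, any treatment and the number of clones or animals are not stated in the labels or files. Nothing in the labels ties the 2 libraries of a genotype to separate animals or cultures, and p-values therefore speak only to the spread between these libraries, part of which may be technical.

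Integrins are receptors made of 1 alpha and 1 beta chain, and the pair decides which matrix protein is bound. The chain made by Itga5 joins that of Itgb1 to form the classical fibronectin receptor, Itgav pairs with several beta chains to bind ligands with an RGD motif, and Itga3, Itga6 and Itga7 give receptors for laminins. Inside the cell the beta chain tail recruits kindlin (Fermt2), the complex of integrin-linked kinase (Ilk), PINCH (Lims1) and parvin (Parva), the tensins (Tns1, Tns3), and a signalling layer of focal adhesion kinase (Ptk2), Src, paxillin (Pxn) and p130Cas (Bcar1). In fibroblasts these adhesions connect the actin cytoskeleton to the matrix that the cells themselves assemble.

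Values are FPKM, fragment counts divided by gene length and scaled for library size, so that levels can be roughly set beside each other between genes. The length of each of the 31 genes is that of all its merged annotated exons, whether or not these cells use them. Changes are Calu-KO minus WT on the log2(FPKM + 1) scale, which understates changes of low genes, with the standard error (SE) of the limma fit, and means are given with their SD over n = 2 libraries. A gene was tested where its mean over the 4 libraries was at least 1 FPKM, and was called where the limma p-value, adjusted by the Benjamini-Hochberg method over all genes tested, was under 0.05. A fold is the mean FPKM of one group over that of the other.

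The 4 libraries held 15635448 to 16510048 reads, recovered from the table. Calu itself stood at 178 and 177 FPKM in WT and at 14.9 and 10.9 FPKM in Calu-KO replicates 1 and 2, 13.7-fold lower (log2 change -3.70 ± 0.17 SE, limma adjusted p = 0.00493), with 1178 and 744 reads left. Calu-KO replicate 2 stood apart: 4.002% of its reads were mitochondrial, where the other 3 libraries had 2.43% to 2.53%, and it had a read in 18739 genes against 19772 to 20477. Of 9 fibroblast markers, 6 reached 1 FPKM in a library (Col1a1, Col1a2, Pdgfra, Pdgfrb, Fbln2 and Vim). Lum and Dcn were at 0 in all 4 libraries and Thy1 did not pass 0.137 FPKM. Only Fbln2 was called, from 99.7 and 99.8 FPKM in WT to 57.4 and 63.0 FPKM in Calu-KO (limma adjusted p = 0.0486). Col1a2 went the other way without passing, from 234 and 229 FPKM in WT to 343 and 394 FPKM in Calu-KO (adjusted p = 0.0721). No gene of 5 lung mesenchyme and lung transcription factors (Tbx4, Tbx5, Foxf1, Nkx2-1, Tcf21) reached 1 FPKM, so the lung origin rests on the titles. These are bulk libraries, in which fewer cells of a type and less RNA per cell cannot be told apart.

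Of the 31 genes, 19 were tested and 12 lay below the filter. In Calu-KO, 1 of the 19 was called higher (Tns3, 5.26% of those tested, where 0.942% of all 11885 genes tested were called higher) and 2 were called lower (Itga6 and Itgb7, 10.5%, where the share over all genes was 1.83%). Over all genes these shares are 112 higher and 217 lower calls, or 34.0% higher among the called, and with the columns rescaled to their recovered total reads they are 45 and 152, or 22.8% higher. The other 16 did not pass. The 2 groups did not overlap, meaning that both libraries of one lay above both of the other, for 12 of the 19 (3 higher, 9 lower), which is 63.2% beside 61.6% of all genes tested, so separation by itself says nothing particular about these genes. The median change of the 19 was -0.03, beside 0.007 over all genes tested. The calls of Tns3, Itga6 and Itgb7 were lost without WT replicate 1 and without WT replicate 2, while the sizes of their changes moved little. In those fits the spread within groups comes from the wider Calu-KO pair alone. The main fit pools the spread of both pairs, so its p-values rest in part on the closeness of the WT pair. Without Calu-KO replicate 1 the median change of the tested members was -0.09, and without Calu-KO replicate 2 it was -0.14. With either Calu-KO library left out, the spread within groups comes from the close WT pair alone, so calls there are not given.

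**Figure D1:**
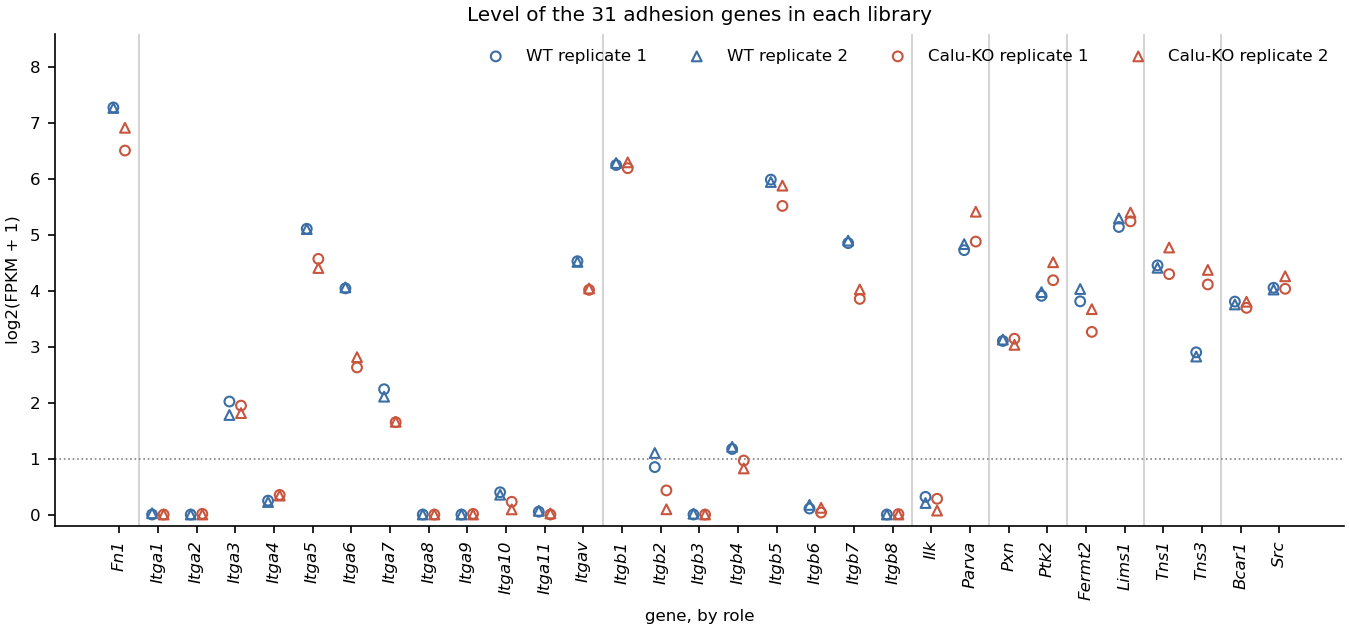
Level of each of the 31 genes in each library, as log2(FPKM + 1), with genes grouped by role from fibronectin through the integrin alpha and beta chains to the cytoplasmic proteins. Blue symbols are WT and red symbols Calu-KO, circles replicate 1 and triangles replicate 2, and the dotted line marks 1 FPKM. The 2 WT symbols nearly coincide for most genes, Itga6 and Itgb7 drop in red and Tns3 rises in red, while 12 genes average below the dotted line.

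The 250 bases upstream of the RefSeq start are shown for Tns3, the member that rose, for Tns1, its paralogue that was not called, and for Itgb7, a member that fell. RefSeq (GRCm38.p6) gave an upstream window for 22 of the 31 genes. The windows are chr11:8664536-8664785 for Tns3, chr1:74124549-74124798 for Tns1 and chr15:102231936-102232185 for Itgb7, all on the minus strand and written 5′ to 3′. Capitals mark GC boxes, searched as GGGCGG on both strands.
Tns3: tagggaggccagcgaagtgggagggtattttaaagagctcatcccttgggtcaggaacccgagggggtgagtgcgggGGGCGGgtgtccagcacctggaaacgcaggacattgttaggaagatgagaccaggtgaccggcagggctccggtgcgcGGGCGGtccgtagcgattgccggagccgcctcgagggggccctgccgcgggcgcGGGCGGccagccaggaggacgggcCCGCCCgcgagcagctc
Tns1: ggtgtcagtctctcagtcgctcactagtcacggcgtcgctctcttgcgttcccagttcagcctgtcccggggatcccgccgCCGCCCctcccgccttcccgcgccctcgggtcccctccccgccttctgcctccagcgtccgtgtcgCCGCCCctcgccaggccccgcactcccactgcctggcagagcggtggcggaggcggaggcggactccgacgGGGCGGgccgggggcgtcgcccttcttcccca
Itgb7: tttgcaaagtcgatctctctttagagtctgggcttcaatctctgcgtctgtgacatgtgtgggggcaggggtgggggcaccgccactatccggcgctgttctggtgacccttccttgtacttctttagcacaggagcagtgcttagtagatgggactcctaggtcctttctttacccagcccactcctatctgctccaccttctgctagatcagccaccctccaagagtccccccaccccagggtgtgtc
Tns3 has 4 GC boxes in a window of 69.6% G and C, Tns1 has 3 in a window of 74.4%, and Itgb7 has 0 in a window of 56.0%. GGGCGG occurs in 32.7% of the 32851 windows of this length in the RefSeq table. The AP-1 motif TGANTCA (6.75% of windows) and the TEAD motif CATTCC (12.6%), searched the same way, occur in none of the 3. These matches describe letters in a window and not bound sites, and no binding was measured here.

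Fibronectin, the matrix ligand of the set, was the most abundant of the 31 in every library. Fn1 (chr1:71585520-71653200, minus strand) stood at 155 and 154 FPKM in WT replicates 1 and 2 and at 90.2 and 119.9 FPKM in Calu-KO. Both Calu-KO libraries were below both WT libraries, but they differed from each other by more than the WT pair did (154 ± 0.694 SD in WT, 105 ± 21.0 in Calu-KO). The change of -0.56 ± 0.17 SE did not pass (limma adjusted p = 0.137). Its size depended on the Calu-KO library used: it was -0.36 without replicate 1 and -0.77 without replicate 2.

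Among the integrin alpha chains, 5 of 12 were tested, 1 was called lower (20%, where 1.83% of all genes tested were) and 0 were called higher. The 5 changes ran from -1.33 to -0.02, with a median of -0.52. Itga6 (chr2:71745616-71858416, plus strand), which makes the alpha-6 chain of laminin receptors, stood at 15.5 and 15.7 FPKM in WT and at 5.20 and 6.04 FPKM in Calu-KO. The groups did not overlap, and the level fell from 15.6 ± 0.140 to 5.62 ± 0.593 FPKM (SD, n = 2), 2.78-fold lower. The change was -1.33 ± 0.12 SE (limma adjusted p = 0.0254). Its call was lost without WT replicate 1, where the change was -1.34, and without WT replicate 2, where the change was -1.32.

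Beside Itga6, the most abundant alpha chains were also lower in both Calu-KO libraries without passing the test. Itga5, the alpha chain of the fibronectin receptor, stood at 33.6 and 33.4 FPKM in WT and at 22.8 and 20.3 FPKM in Calu-KO (change -0.62 ± 0.11 SE, limma adjusted p = 0.0684). Itgav, the alpha-v chain, stood at 22.1 and 21.9 FPKM in WT and at 15.2 and 15.5 FPKM in Calu-KO (change -0.49 ± 0.10 SE, adjusted p = 0.0808). For both genes the groups did not overlap and the libraries within each group lay close together. Itga7, a laminin receptor chain best known from muscle, stood at 3.73 and 3.31 FPKM in WT and at 2.14 and 2.16 FPKM in Calu-KO (change -0.52 ± 0.14 SE, adjusted p = 0.117). Of 8 smooth muscle and pericyte markers, Des fell from 14.0 and 15.6 FPKM to 6.81 and 7.86 FPKM (limma adjusted p = 0.0412). Mcam rose from 2.42 and 2.77 FPKM to 18.4 and 12.97 FPKM (adjusted p = 0.0251). The sum of the 8 was 53.1 to 53.3 FPKM in WT and 55.4 to 66.2 FPKM in Calu-KO. Most of it was Cspg4, which was not called, at 36.7 and 34.5 FPKM in WT and 30.1 and 45.2 FPKM in Calu-KO. Acta2 had 5 reads in WT and 0 in Calu-KO, Tagln 7 and 7, and Myh11 5 and 3. Cnn1 and Rgs5 were at 0 in all 4 libraries. The part of such cells in the Itga7 value was not tested. Limma with voom weights on the recovered reads called Itga5 and Itga7 as well (adjusted p = 0.0335 and 0.0460). Without Calu-KO replicate 1 and without Calu-KO replicate 2, the change was -0.70 and -0.54 for Itga5 and -0.48 and -0.51 for Itgav. For Itga7 it was -0.52 in both fits. Itga3, another laminin receptor chain, stood at 3.06 and 2.44 FPKM in WT and at 2.86 and 2.52 FPKM in Calu-KO. Here the groups overlapped, and the change of -0.02 had a 95% interval from -0.42 to 0.39.

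Of the beta chains, 4 of 8 were tested, 1 was called lower (25%, where 1.83% of all genes tested were) and 0 higher. Their changes ran from -0.94 to -0.02, with a median of -0.28. Itgb7 (chr15:102215995-102231944, minus strand), known mainly as a lymphocyte chain that pairs with the products of Itga4 and Itgae, stood at 27.9 and 28.8 FPKM in WT and at 13.5 and 15.3 FPKM in Calu-KO. The groups did not overlap, and the level fell from 28.4 ± 0.639 to 14.4 ± 1.27 FPKM (SD, n = 2), 1.97-fold lower. The change was -0.94 ± 0.12 SE (limma adjusted p = 0.0335). Its call was lost without WT replicate 1 (change -0.96) and without WT replicate 2 (change -0.91). The 2 known alpha partners were low in every library: Itga4 at 0.168 to 0.275 FPKM and Itgae, which is outside the set, at 0.329 to 0.568 FPKM. Among 8 leukocyte and macrophage markers, 2 reached 1 FPKM and the summed level was 11.3 to 12.4 FPKM in WT and 4.12 to 4.37 FPKM in Calu-KO. That sum was made up mostly of Lyz2 and Cd68. Lyz2 fell from 6.59 and 7.23 FPKM to 1.71 and 1.25 FPKM (limma adjusted p = 0.0254). Cd68 stood at 4.32 and 4.79 FPKM in WT and at 2.40 and 2.78 FPKM in Calu-KO (adjusted p = 0.0888). Csf1r was low, with 29 reads in WT and 12 in Calu-KO, Ptprc (CD45) did not pass 0.00334 FPKM, and Itgam and Adgre1 were at 0 in all 4 libraries. Cd3e had 3 reads in WT and 0 in Calu-KO, and Cd79a had 7 in WT and 5 in Calu-KO, its groups overlapping. The part of leukocyte RNA in the Itgb7 value was not tested.

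The other 3 tested beta chains did not pass. Itgb1, which pairs with most of the alpha chains above, stood at 75.2 and 77.2 FPKM in WT and at 72.3 and 77.8 FPKM in Calu-KO. The groups overlapped and the change was -0.02 ± 0.11 SE (limma adjusted p = 0.909), with a 95% interval from -0.30 to 0.26. Itgb5, a partner of alpha-v in binding vitronectin, stood at 62.6 and 60.7 FPKM in WT and at 44.9 and 58.0 FPKM in Calu-KO (change -0.27 ± 0.15 SE, adjusted p = 0.329). Its change was -0.09 without Calu-KO replicate 1 and -0.45 without Calu-KO replicate 2. Itgb4, the partner of alpha-6 in the hemidesmosomes of epithelia, stood at 1.25 and 1.31 FPKM in WT and at 0.953 and 0.771 FPKM in Calu-KO (change -0.30 ± 0.17 SE, adjusted p = 0.339). Itgb4 and Itgb5 were lower in both Calu-KO libraries than in both WT libraries, by less than the test could call. Beside Itga6 and Itgb4, the sum of 7 epithelial markers was 3.27 to 3.42 FPKM in WT and 0.478 to 0.619 FPKM in Calu-KO, a difference that lay mostly in Krt8. Krt8 fell from 2.75 and 2.28 FPKM to 0.0604 and 0.0699 FPKM (limma adjusted p = 0.0274). Scgb1a1, the only other one to reach 1 FPKM, had 11 reads in WT and 3 in Calu-KO, Krt18 had 3 and 3, Krt19 had 4 and 12, Cdh1 did not pass 0.0132 FPKM, and Epcam and Sftpc were at 0 in all 4 libraries. The part of epithelial RNA in the Itga6 and Itgb4 values was not tested.

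All 9 integrin chains tested had a negative change, where 49.3% of all genes tested did. That count was 9 of 9 with the columns rescaled to equal sums or to recovered total reads, and 8 of 9 under quantile normalization and without WT replicate 1, Calu-KO replicate 1 or Calu-KO replicate 2. Only 2 of the 9 passed the test (22.2%, where 1.83% of all genes tested were called lower). The changes of Itga3 and Itgb1, both -0.02, are smaller than their SE.

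**Figure D2:**
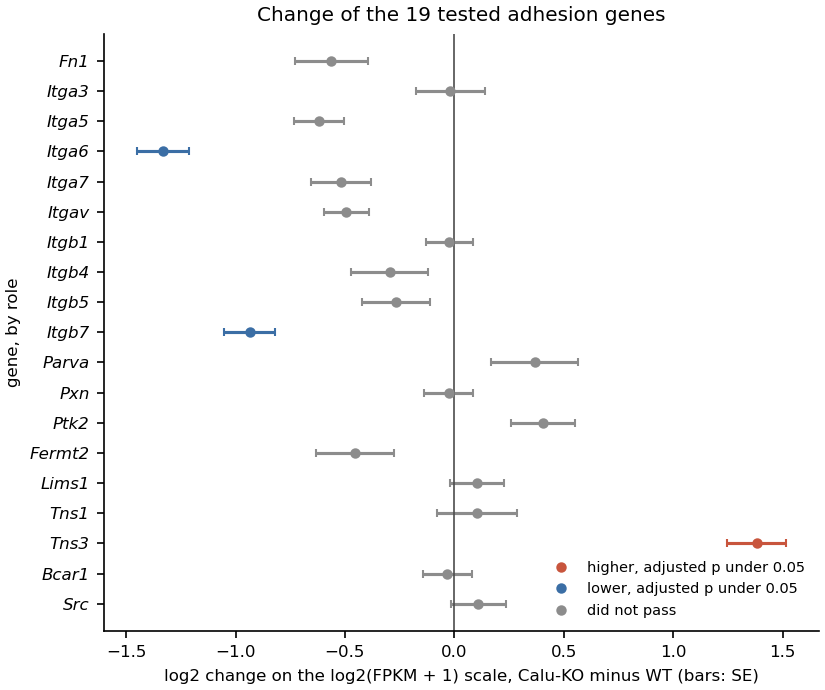
Change of each of the 19 tested genes, Calu-KO minus WT on the log2(FPKM + 1) scale, with bars for the SE of the limma fit. Blue marks the 2 called lower, red the gene called higher and grey those that did not pass. All 9 integrins lie at or left of 0, from -1.33 for Itga6 to -0.02, while the cytoplasmic proteins lie on both sides of it and Tns3 stands alone at 1.38.

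Summed over chains, the ratio of WT to Calu-KO was larger for the alpha than for the beta chains. The 12 alpha chains summed to 78.5 and 77.3 FPKM in WT and to 48.7 and 46.8 FPKM in Calu-KO, a ratio of 1.63 between the means. The 8 beta chains summed to 168 and 169 FPKM in WT and to 132 and 152 FPKM in Calu-KO, a ratio of 1.19. Neither sum was tested, and neither overlapped between the groups.

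The order of the abundant chains changed little. In WT the alpha chains ran from Itga5 through Itgav, Itga6 and Itga7 to Itga3, and in Calu-KO Itga3 stood above Itga7, the pair being near each other in WT. Itga5 made up 42.7% and 43.2% of the alpha sum in WT and 46.8% and 43.3% in Calu-KO. Itga6 made up 19.8% and 20.3% in WT and 10.7% and 12.9% in Calu-KO, while Itgav made up 28.2% and 28.4% in WT and 31.3% and 33.1% in Calu-KO. On the beta side Itgb1 came first, then Itgb5, then Itgb7, in all 4 libraries. Itgb1 made up 44.8% and 45.6% of the beta sum in WT and 54.8% and 51.2% in Calu-KO, and Itgb7 16.6% and 17.0% against 10.2% and 10.1%. Per unit of Itgb1, Itga6 stood at 0.206 and 0.204 in WT and at 0.0719 and 0.0776 in Calu-KO, and Itga5 at 0.446 and 0.433 in WT and at 0.315 and 0.260 in Calu-KO. These ratios compare RNA levels, from which receptor numbers at the surface cannot be read.

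**Figure D3:**
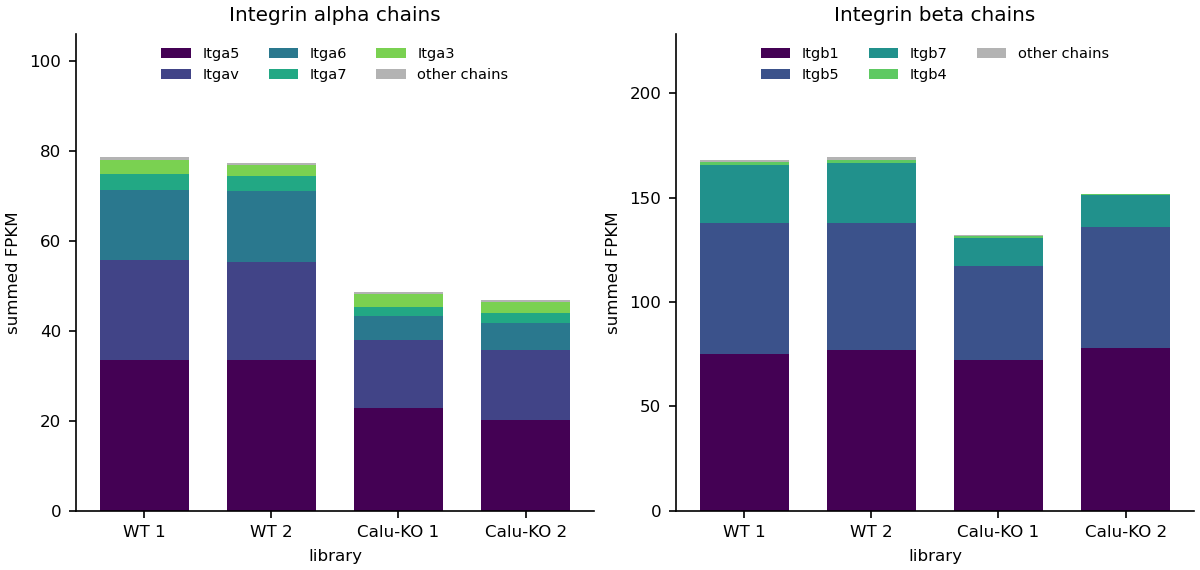
Summed FPKM of the 12 integrin alpha chains (left) and the 8 integrin beta chains (right) in each library, stacked by chain, with chains under the filter pooled in grey. The alpha stack is 78.5 and 77.3 FPKM in WT against 48.7 and 46.8 FPKM in Calu-KO, where the Itga6 layer is 2.78-fold lower in mean FPKM, and in the beta stack the Itgb1 layer keeps its height.

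The 11 other integrin chains lay below the filter, and most were close to 0. Itga8, which marks some mesenchymal cells, had 0 reads in all 4 libraries. Itga2, Itga9 and Itgb8 had 1 read each, in Calu-KO replicate 1, and Itgb3 had 1 read, in WT replicate 2. Itga1, a collagen receptor chain, had 5 reads in WT replicate 2 and 0 elsewhere. Itga11, the fibroblast collagen receptor chain, was read 3 and 4 times in WT against 0 and 1 times in Calu-KO. All of these were therefore at or near the limit that 3 reads set, which for these genes is 0.0110 to 0.0400 FPKM. Of the collagen receptor chains of the set (Itga1, Itga2, Itga10, Itga11), none passed 0.318 FPKM in any library, the level of Itga10 in WT replicate 1.

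The remaining low chains had countable reads but no test. Itgb2, the beta chain of leukocyte integrins, was read 40 and 58 times in WT against 18 and 3 times in Calu-KO, that is 0.800 and 1.14 FPKM against 0.349 and 0.0673 FPKM. The groups did not overlap and the mean was 4.67-fold lower, the lowest library holding 3 reads. Its partner chain Itgal, outside the set, stood at 2.36 and 2.37 FPKM in WT and at 1.999 and 2.80 FPKM in Calu-KO. Itga10 was read 27 and 24 times in WT against 15 and 5 times in Calu-KO, and 33.5% of its exonic bases are shared with an annotated gene listed at 0. Itga4 went the other way, at 43 and 39 reads for WT against 65 and 54 for Calu-KO. Itgb6, an epithelial partner of alpha-v, was read 9 and 15 times in WT against 3 and 9 times in Calu-KO.

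The cytoplasmic proteins did not share a direction: of 9 tested, 6 had a positive (66.7%) and 3 a negative change, with a median of 0.10. Over all genes tested, 50.7% had a positive change. The changes of Lims1, Tns1, Src, Pxn and Bcar1 were smaller than their SE. With the columns rescaled to recovered total reads, those of Lims1, Tns1 and Src were 0.00, 0.00 and 0.01. Of the 9, 1 was called higher (11.1%, where 0.942% of all genes tested were). That gene was Tns3 (chr11:8431652-8664535, minus strand), which encodes tensin 3, a linker between integrin tails and actin. Tns3 stood at 6.47 and 6.09 FPKM in WT and at 16.3 and 19.8 FPKM in Calu-KO. Both Calu-KO libraries were far above both WT libraries, and the level rose from 6.28 ± 0.271 to 18.04 ± 2.42 FPKM (SD, n = 2), 2.87-fold higher. The change was 1.38 ± 0.13 SE (limma adjusted p = 0.0266). Its call was lost without WT replicate 1 (change 1.42) and without WT replicate 2 (change 1.34). The WT libraries held 1185 and 1131 reads of the gene and the Calu-KO libraries 3088 and 3228, so counting error is small beside the difference.

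Its paralogue Tns1 stood at 21.0 and 20.3 FPKM in WT and at 18.7 and 26.4 FPKM in Calu-KO. The groups overlapped, with the WT libraries between the 2 Calu-KO libraries, and the change was 0.10 ± 0.18 SE (limma adjusted p = 0.742). Its direction turned with the library left out: the change was 0.34 without Calu-KO replicate 1 and -0.14 without Calu-KO replicate 2. Tns3 per unit of Tns1 was 0.309 and 0.300 in WT and 0.873 and 0.748 in Calu-KO, so Tns1 remained the more abundant of the pair in every library. Of the tensins outside the set, Tns2 was the only one tested and stood at 48.7 and 47.4 FPKM in WT and at 42.7 and 49.3 FPKM in Calu-KO (change -0.06 ± 0.12 SE, adjusted p = 0.761).

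Among the complex of kinase, PINCH and parvin and the kindlin Fermt2, none of the 3 tested members passed. Parva, alpha-parvin, stood at 25.5 and 27.6 FPKM in WT and at 28.5 and 41.7 FPKM in Calu-KO (change 0.37 ± 0.20 SE, limma adjusted p = 0.309). Most of that difference lies in Calu-KO replicate 2: the change was 0.63 without Calu-KO replicate 1 and 0.10 without replicate 2. Lims1, the adaptor PINCH1, stood at 34.3 and 38.3 FPKM in WT and at 36.9 and 41.3 FPKM in Calu-KO (change 0.10 ± 0.12 SE, adjusted p = 0.617), and the groups overlapped. Fermt2, kindlin-2, which helps to switch integrins on, stood at 13.1 and 15.4 FPKM in WT and at 8.63 and 11.8 FPKM in Calu-KO (change -0.45 ± 0.18 SE, adjusted p = 0.206). Both Calu-KO libraries of Fermt2 lay below both WT libraries, and the change was -0.25 without Calu-KO replicate 1 and -0.66 without Calu-KO replicate 2.

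Ilk, the kinase that gives the complex its name, was listed near 0, at 0.245 and 0.154 FPKM in WT and at 0.216 and 0.0499 FPKM in Calu-KO, from 11, 7, 10 and 2 reads. The deposited length of Ilk equals its 2744 merged exonic bases in the GENCODE M21 annotation. Of these bases, 2461 (89.7%) are also exonic in a gene on the opposite strand: Taf10 covers 76.7% of them and Rrp8 12.9%, which leaves 283 to Ilk alone. Taf10 stood at 11.4 to 13.2 FPKM and Rrp8 at 17.99 to 21.3 FPKM. Whether counting used strand is not stated in the labels or files, and how reads in the shared bases were assigned was not tested. The listed level of Ilk is therefore uncertain and is not read as absence of its RNA. Among the other members only Itga10 shares more than 10% of its exonic bases with another gene.

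**Figure D4:**
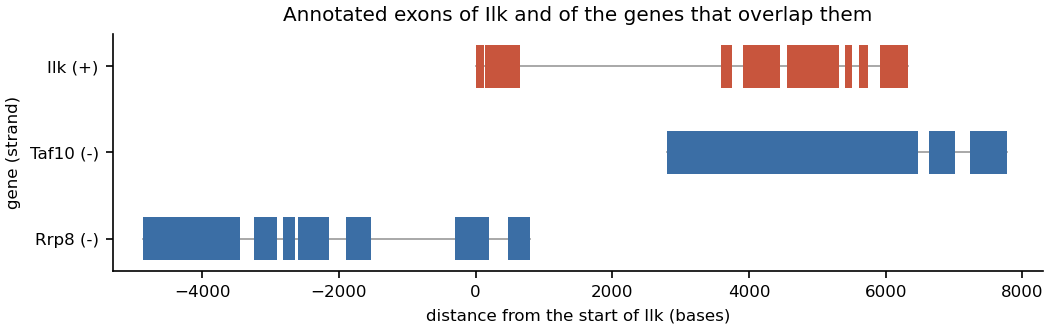
Merged exons of Ilk (red, plus strand) and of Taf10 and Rrp8 (blue, minus strand) in GENCODE M21, with distance from the start of Ilk in bases on the horizontal axis. A single wide Taf10 exon covers the last 6 Ilk exons of the drawing, and 2 Rrp8 exons reach into the first 2, which together is 89.7% of the exonic bases of Ilk.

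In the signalling layer none of 4 members passed. Ptk2, focal adhesion kinase, stood at 14.1 and 14.8 FPKM in WT and at 17.3 and 21.8 FPKM in Calu-KO (change 0.41 ± 0.15 SE, limma adjusted p = 0.180), with no overlap of the groups. Its change was 0.57 without Calu-KO replicate 1 and 0.25 without Calu-KO replicate 2. Src, the kinase that binds activated focal adhesion kinase, stood at 15.6 and 15.3 FPKM in WT and at 15.4 and 18.2 FPKM in Calu-KO (change 0.11 ± 0.13 SE, limma adjusted p = 0.605). The change of Src was 0.22 without Calu-KO replicate 1 and 0.00 without Calu-KO replicate 2. Pxn, the scaffold paxillin, stood at 7.60 and 7.75 FPKM in WT and at 7.85 and 7.20 FPKM in Calu-KO. Pxn and Bcar1 both overlapped between groups and had changes of -0.03, with 95% intervals from -0.32 to 0.26 for Pxn and from -0.32 to 0.25 for Bcar1. Bcar1, the docking protein p130Cas, stood at 13.0 and 12.5 FPKM in WT and at 12.0 and 13.0 FPKM in Calu-KO. Across the 19 tested members, 15 were higher in Calu-KO replicate 2 than in Calu-KO replicate 1 (78.9%), where 52.5% of all genes tested were. The part of that library's difference in any change above was not tested.

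The remaining adhesion machinery was read from 7 further lists, 97 genes in all, of which 72 were tested. Of these, 1 was called higher (1.39%, where 0.942% of all genes tested were) and 5 lower (6.94%, where 1.83% were). Their median change was -0.02. The list of other proteins of the kinase, PINCH, parvin and kindlin group had the lowest median of the 7, -0.84. Its 5 tested genes (Lims2, Parvb, Parvg, Rsu1, Ilkap) all had a negative change, where 49.3% of all genes tested did. The change of Ilkap, -0.02, is smaller than its SE of 0.12. Of the 5, 2 were called lower (40%), where 1.83% of all genes tested were. Neither of its kindlins, Fermt1 and Fermt3, reached the filter. Parvb, beta-parvin, stood at 30.8 and 30.1 FPKM in WT and at 13.8 and 16.7 FPKM in Calu-KO (change -0.96 ± 0.13 SE, limma adjusted p = 0.0409). Parvg, gamma-parvin, a form known from blood cells, stood at 8.64 and 9.31 FPKM in WT and at 4.15 and 4.98 FPKM in Calu-KO (change -0.84 ± 0.13 SE, adjusted p = 0.0499). Thus Parvb and Parvg fell while Parva, at 25.5 to 41.7 FPKM, was not called, and the difference between the parvins was not tested. Parvb (chr15:84232043-84315688) and Parvg (chr15:84324026-84342978) lie close together on the plus strand, and whether their changes are separate was not tested. Lims2, the paralogue of Lims1, stood at 2.98 and 2.85 FPKM in WT and at 0.924 and 1.15 FPKM in Calu-KO. Its groups did not overlap, but it did not pass (change -0.94 ± 0.16 SE, limma adjusted p = 0.0558).

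Among 17 tested talin, vinculin and actin linkers, 0 were called lower, where 1.83% of all genes tested were, and the median was 0.16. Of 17 partners of focal adhesion kinase, paxillin and Cas, 1 was called lower (5.88%, beside the same 1.83%), with a median of 0.05 over the list. This was Tgfb1i1, the paxillin relative Hic-5, at 4.75 and 4.41 FPKM in WT and 2.13 and 1.78 FPKM in Calu-KO (change -0.92 ± 0.14 SE, adjusted p = 0.0482).

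Of 17 tested genes of integrin activation, trafficking and membrane partnership, 1 was called lower (5.88%, where 1.83% of all genes tested were). The list median was -0.17. Apbb1ip, the Rap1 effector RIAM that brings talin to integrins, stood at 2.13 and 2.43 FPKM in WT and at 0.503 and 0.452 FPKM in Calu-KO (change -1.15 ± 0.17 SE, limma adjusted p = 0.0443). Of 14 tested ligands other than fibronectin, 1 was called lower (7.14%, beside the same 1.83%), with a median of -0.11. Tgfb1, whose latent form is held and activated by alpha-v integrins, stood at 9.59 and 9.15 FPKM in WT and at 4.55 and 4.25 FPKM in Calu-KO (change -0.94 ± 0.11 SE, adjusted p = 0.0331). Among leukocyte and platelet alpha chains 1 of 6 was tested, Itgal, and it did not pass (change 0.00 ± 0.17 SE, adjusted p = 0.990). The calls in these 7 lists were lost without WT replicate 1 and without WT replicate 2, where the spread within groups comes from the Calu-KO pair alone.

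**Figure D5:**
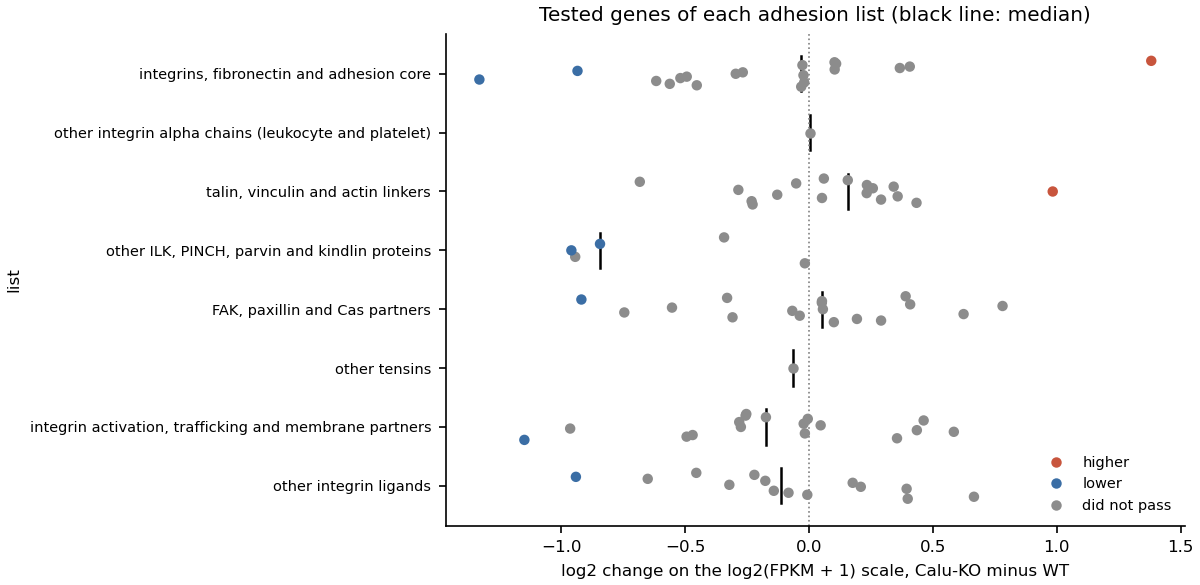
Change of each tested gene, Calu-KO minus WT on the log2(FPKM + 1) scale, for the integrins, fibronectin and adhesion core and for 7 further adhesion lists, with a black line at each median. Red points were called higher, blue points lower, and grey points did not pass. Most points lie in grey around 0, and the 5 tested genes of the other ILK, PINCH, parvin and kindlin list have their median at -0.84, while Tns3 is the red point farthest to the right.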

How the data were processed

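RNA of 2 WT and 2 Calu-KO samples was sequenced on an Illumina NovaSeq 6000 after TRIzol extraction. Alignment of the paired reads used HISAT2 2.0.5, per the labels' protocols. The build was mm10, per the submitters' processing notes. The counter, annotation, strand setting and FPKM program were not given in the sources used here. FPKM values of 54532 genes were deposited by the authors. Every value times gene length was a whole multiple of 1 step per library (100% within 0.001 reads), which gave the recovered reads and showed that the deposited columns are not scaled to total reads. In 1 kb, 3 reads are worth 0.177 to 0.205 FPKM, and such limits cover counting error only.

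Groups came from the genotype labels. Log2(FPKM + 1) of the 11885 genes averaging at least 1 FPKM was fitted with limma 3.58.1 in R 4.3.3 (trended prior, two-sided, Benjamini-Hochberg, 0.05). Exact permutation of 2 against 2 libraries allows no two-sided p below 0.333. The code of the fit was run on simulated reads with the same spread in both groups. The groups differ in spread here, so that run does not speak to the fit on these data. Alternatives covered pseudocounts, filters, scaling, prior, block and left-out libraries. The members and lists were chosen with earlier results of these data known. All 31 members are named, with up to 4 called genes of each further list, or the gene with the greatest change where none was called. A gene that this rule takes is not reported here. Genes named outside that rule and the marker lists (Itgae, Lims2, Rsu1, Ilkap, Fermt1, Fermt3, Taf10, Rrp8) were chosen after their values were seen. Coordinates are those of the deposited table. GENCODE M21 exon lengths equalled the deposited lengths of all 31 members. Between replicates, the median chi-square per gene (genes of 100 reads or more) was 1.22 in WT and 9.90 in Calu-KO, so no pair was counted as 1 sample.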

Additional observations from a re-analysis of the deposited data

How the results depend on the processing

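The calls of Tns3, Itga6 and Itgb7 kept their direction in all 14 alternatives and were lost in 2 of them, the fits without WT replicate 1 and without WT replicate 2. Leaving out 1 library at a time gave 0 to 5 members higher, 0 to 7 lower, 42 to 5731 genes called in all and 0 to 45 of the other adhesion genes, and the lone library was then assumed to vary like the other group. Without a filter on low values, 5 members were lower, 2408 genes and 16 other adhesion genes were called, but most residual variances were then 0 and the fit is unreliable. With a pseudocount of 0.1 FPKM, with a filter at 5 FPKM and after rescaling by total reads, 3 other adhesion genes were called. Rescaling by total reads also gave 197 calls over all genes, and moved the median change of all genes to -0.088. This setting and voom on recovered reads were added after the data were seen. Voom gave 4 members lower, 830 calls over all genes and 11 other adhesion genes. The cause of these differences was not tested. The replicate block gave 1 member higher and 2 lower, and 181 genes higher and 312 lower. The replicate numbers did not pair the samples (r = 0.0153 across 11885 genes, which are not independent). The 2 planned count-model tests were not run, since the deposited unit is FPKM. With 2 libraries a group, a change as large as that of Itga5 did not pass, and the 12 low members allow no statement on change.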
